A study of Homo sapiens with 8 samples.

Results

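The 45 genes described here act in cell division, from entry into mitosis to the cut that separates daughter cells. They were taken by gene symbol from a list of mitosis, kinetochore and cytokinesis genes, chosen with earlier results of these data known. All 45 were found among the 60754 genes of the deposited tables. All 45 were also among the 17314 genes that passed the filter on low counts and were tested. The samples were MEG-01 cells, a human megakaryoblast line in long-standing use, in 4 groups of 2 RNA libraries each. One group received 100 nM PMA, a phorbol ester and protein kinase C activator used to make these cells differentiate towards megakaryocytes, together with 20 µM Ceefourin 2, an inhibitor of the exporter ABCC4, for 48 h. Others received PMA alone at 100 nM for 48 h or Ceefourin 2 alone for 48 h, at a dose not given in the sources used here, and the last was left untreated. The series asks how ABCC4 bears on megakaryocyte formation, and the comparisons follow its PMA and inhibitor arms. All groups come from the same line, and the labels do not say whether the 2 libraries of a group came from separate cultures, so p-values measure the spread between these libraries, which may be technical.

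A dividing cell enters mitosis when cyclin-bound CDK1 is switched on, condenses its chromosomes, attaches them to spindle microtubules at kinetochores, and waits at the spindle checkpoint until all are attached. The anaphase-promoting complex then destroys securin and cyclin B, sister chromatids part, and a ring of actin and non-muscle myosin under control of RHOA pinches the cell apart. Megakaryocytes become polyploid by endomitosis, in which cells enter mitosis and start to separate chromosomes but do not complete cytokinesis. In mouse megakaryocytes a drop of the RHOA activators ECT2 and ARHGEF2 (GEF-H1) is known to accompany this change, and in human megakaryocytes the myosin heavy chain MYH10 is known to be silenced. DNA content and cell division were not analysed here.

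Depth was between 44430292 and 89950886 expected counts per library. The share of counts from mitochondrially encoded transcripts was 8.32% and 4.94% in replicates 1 and 2 of PMA plus Ceefourin 2, 9.61% and 4.53% in PMA, 2.77% and 3.11% in Ceefourin 2, and 2.55% and 3.94% in untreated cells. The share was thus highest in replicate 1 of both PMA-treated groups. Of 11 megakaryocyte markers, 10 were tested and all 10 rose after PMA. Over all tested genes, 27.9% rose and 25.7% fell in that comparison. The summed level of the 11 markers was 1862 and 2043 TPM in PMA libraries, against 776 and 757 TPM in untreated libraries. PF4, a platelet chemokine, was at or below 0.03 TPM in all 8 libraries. Of 8 genes listed as markers of other cell types, 5 were tested, of which COL1A1 and PECAM1 rose and EPCAM fell after PMA. PECAM1 is not specific to other cell types, since megakaryocytes and platelets also carry it. The summed level of the listed genes, PECAM1 included, was 208 and 227 TPM in PMA plus Ceefourin 2 libraries and 209.6 and 255 TPM in PMA. It was 64.2 and 72.0 TPM in Ceefourin 2, and 107 and 104 TPM in untreated libraries, and is not a measure of other cells. The T cell marker CD3E was at 0 in all 8 libraries, and the part of these markers in the results below was not tested.

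Before any treatment, most of the division genes were at readily measured levels. In untreated libraries the median over the 45 genes was 41.4 TPM (a level per transcript length, scaled to the same total in every library), with 8 genes above 100 TPM and 4 below 10 TPM. PTTG1, the securin that holds separase inactive, led with 223 and 243 TPM, and CCNB1, the cyclin B that activates CDK1, followed with 235 and 225 TPM. The ranges of these leading genes overlapped. PLK1, BUB3 and CDC20 came next, with 155 and 150.3 TPM for the mitotic kinase PLK1, 152 and 151 TPM for the checkpoint protein BUB3 and 165 and 136 TPM for CDC20, the activator of the anaphase-promoting complex. The order among these 3 was not resolved, since neighbouring ranges overlapped, as they did in 26 of the 44 neighbouring pairs in the untreated order. At the low end stood KNL1, a kinetochore scaffold, with 7.66 and 6.77 TPM, and the cytokinesis kinase CIT with 9.57 and 7.90 TPM. UBE2C, the ubiquitin-conjugating enzyme that works with the anaphase-promoting complex, was listed at 0.12 to 0.97 TPM in all 8 libraries, from 3 to 19 expected counts each. The annotation release behind the counts is not stated, so whether these counts reflect the gene's RNA could not be checked, and the values of UBE2C below are uncertain.

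**Figure D1:**
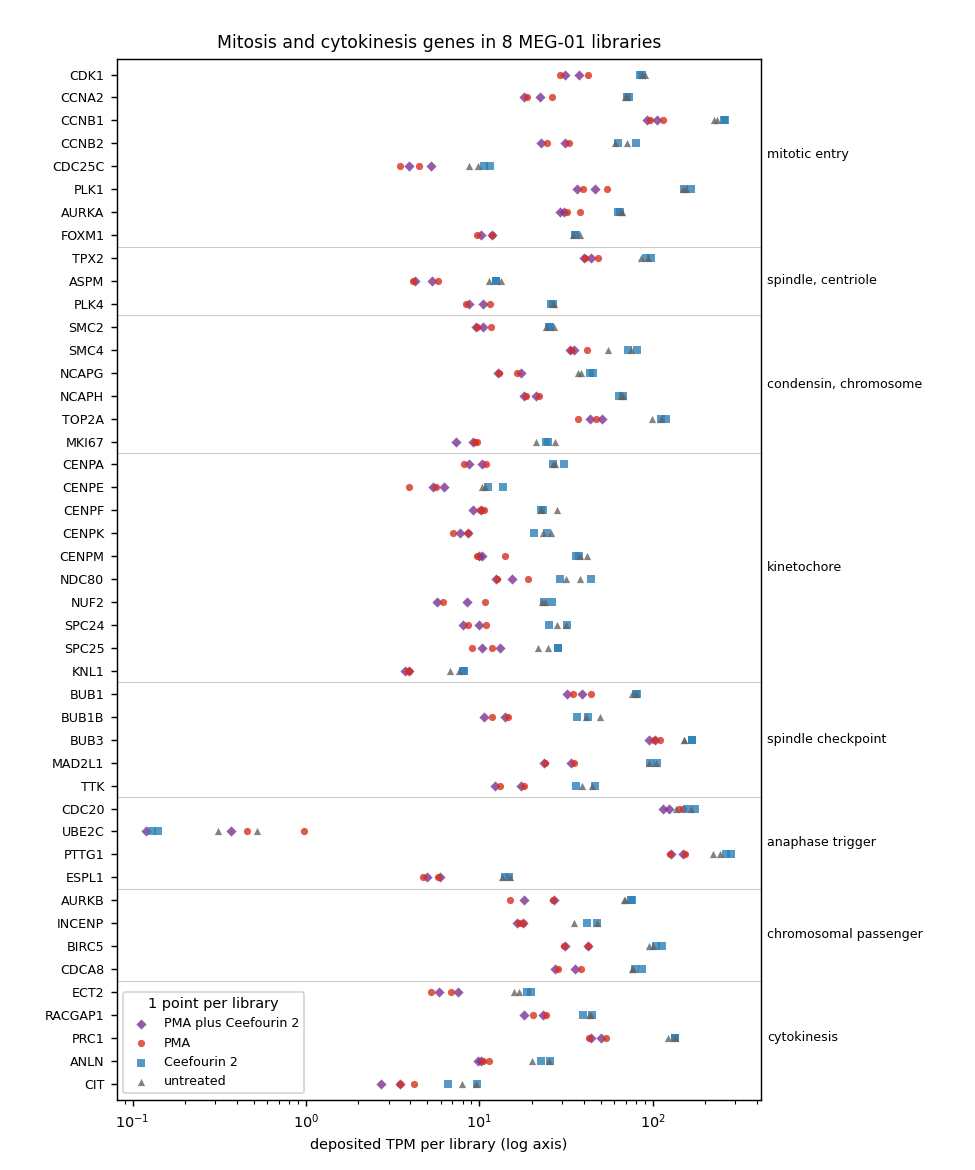
Deposited TPM (log axis) of the 45 genes in all 8 libraries, 1 point per library, with genes grouped by role. For 43 genes both PMA-treated groups sit left of both groups without PMA. CDC20 shows little separation, and UBE2C lies below 1 TPM throughout.

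PMA lowered nearly all of the 45 genes. Of the 45 genes, 43 fell and 0 rose in PMA cells against untreated cells, where 25.7% of all tested genes fell and 27.9% rose (edgeR quasi-likelihood test, called below an adjusted p of 0.05). The median log2 fold change was -1.03 over the 45 genes and -0.00 over all tested genes. In these 43 genes both PMA libraries lay below both untreated libraries, an arrangement seen in 38.7% of all tested genes. The exceptions were CDC20 and UBE2C, whose PMA libraries both lay above both untreated libraries on the scaled count level, as in 39.1% of all tested genes. Summed over the 45 genes, the level was 1148 and 1396 TPM in PMA libraries, against 2789 and 2685 TPM in untreated libraries. In such bulk samples, fewer dividing cells and less RNA per cell cannot be told apart. Of the 43, 27 fell by at least 2-fold, which 10.3% of all tested genes did, but only 15 did so without PMA replicate 1, the library with the highest mitochondrial share. Without that library the median was -0.86, and without PMA replicate 2 it was -1.21. The part of the mitochondrial share in these falls was not tested.

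All 8 genes of mitotic entry fell. PLK1 had 39.8 and 54.5 TPM in PMA libraries, against 155 and 150.3 TPM in untreated libraries. Its log2 fold change was -1.47 ± 0.17 (SE, adjusted p = 0.00026), and the groups stood far apart. FOXM1, a transcription factor that drives many genes of late G2, had 9.64 and 11.9 TPM in PMA libraries, against 38.0 and 34.6 TPM in untreated libraries, a log2 fold change of -1.48 ± 0.14 (adjusted p = 8.3e-05). CCNA2, the cyclin of S and G2 phase, had 18.9 and 26.15 TPM with PMA, against 71.5 and 69.4 TPM without, which is -1.40 ± 0.17 on the log2 scale (adjusted p = 0.00026). Smaller falls were seen in the cyclins that act later. CCNB1 had 96.2 and 115 TPM in PMA libraries, against 235 and 225 TPM in untreated ones, and so was still above the untreated median of the 45 genes after its fall of -0.91 ± 0.12 (adjusted p = 0.00049). CDK1 itself had 29.1 and 42.4 TPM with PMA and 86.2 and 90.4 TPM without, with a log2 fold change of -1.04 ± 0.19 (adjusted p = 0.0022). AURKA, the spindle pole kinase, fell least of the 8, by a log2 fold change of -0.70 ± 0.10 (adjusted p = 0.00064). CDC25C, the phosphatase that activates CDK1, and CCNB2 fell by log2 fold changes of -0.95 and -0.92. CCNB2 was no longer called without PMA replicate 1 (adjusted p = 0.084) or without untreated replicate 2 (adjusted p = 0.071).

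The 3 spindle and centriole genes fell, and so did the 6 genes that shape chromosomes. TPX2, which activates AURKA on the spindle, had 40.4 and 48.4 TPM in PMA libraries, against 93.5 and 85.8 TPM in untreated libraries. ASPM, a spindle pole protein, had 4.17 and 5.81 TPM with PMA, against 13.25 and 11.4 TPM without, and PLK4, the kinase that starts centriole duplication, had 8.42 and 11.5 TPM with PMA, against 26.6 and 26.9 TPM without. Their log2 fold changes were -0.76 ± 0.11 for TPX2, -1.02 ± 0.17 for ASPM and -1.19 ± 0.16 for PLK4, with adjusted p of 0.00084, 0.0015 and 0.00051. Among the 4 condensin subunits of the 45, which fold chromosomes into rods, NCAPH fell most. It had 18.5 and 22.1 TPM in PMA libraries, against 67.4 and 65.8 TPM in untreated libraries, and a log2 fold change of -1.36 ± 0.18 (adjusted p = 0.00043). SMC4, a core ATPase of condensin, fell least, with 41.8 and 33.9 TPM in PMA libraries, against 74.6 and 55.1 TPM in untreated libraries (-0.63 ± 0.11, adjusted p = 0.002). Its partner SMC2 fell by -1.01 and NCAPG by -1.10 in log2 fold change. TOP2A, which untangles sister chromatids, had 36.9 and 47.1 TPM with PMA, against 112 and 98.85 TPM without, and MKI67, the proliferation marker that coats mitotic chromosomes, had 9.39 and 9.69 TPM with PMA, against 27.3 and 21.3 TPM without. Both showed groups well apart, with log2 fold changes of -1.02 ± 0.13 and -1.16 ± 0.10 (adjusted p = 0.00042 and 4.2e-05).

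Kinetochore genes fell as a group, in 10 of 10 cases. CENPM, a subunit of the inner kinetochore, showed the largest estimated fall of all 45 genes, with MAD2L1, FOXM1 and PLK1 within its SE. It had 9.67 and 14.1 TPM in PMA libraries, against 42.0 and 37.9 TPM in untreated libraries, for a log2 fold change of -1.53 ± 0.18 (adjusted p = 0.00021). CENPA, the histone H3 variant that marks centromeres, had 8.15 and 10.95 TPM with PMA, against 26.6 and 27.5 TPM without (-1.30 ± 0.21, adjusted p = 0.0011). The 4 subunits of the NDC80 complex, which grips microtubule ends, summed to 36.5 and 52.6 TPM in PMA libraries, against 104 and 118 TPM in untreated libraries. Within the complex the log2 fold changes were -1.44 ± 0.18 for SPC24, -1.22 ± 0.24 for NUF2, -1.03 ± 0.16 for SPC25 and -0.92 ± 0.28 for NDC80. NDC80 had 12.7 and 19.0 TPM in PMA libraries, against 31.7 and 37.9 TPM in untreated libraries, so its groups did not overlap but its replicates were wide apart. Its adjusted p was 0.025, and the call was lost without PMA replicate 1 (adjusted p = 0.15) or without untreated replicate 2 (adjusted p = 0.12). CENPK of the inner kinetochore, CENPF, a large outer kinetochore protein, and CENPE, a kinesin that aligns chromosomes, fell by log2 fold changes of -1.32, -1.17 and -0.89. KNL1 fell least in this group, at -0.76 ± 0.13 (adjusted p = 0.0015).

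All 5 spindle checkpoint genes fell, over a wide range of sizes. MAD2L1, which sequesters CDC20 while chromosomes are unattached, had 23.9 and 34.96 TPM in PMA libraries, against 105 and 95.5 TPM in untreated libraries, a log2 fold change of -1.51 ± 0.16 (adjusted p = 0.00017). BUB1B (BubR1), its partner in the inhibitory complex, had 11.9 and 14.6 TPM with PMA, against 49.4 and 41.2 TPM without (-1.44 ± 0.15, adjusted p = 0.00016). BUB3, the third protein of that complex, fell far less. It had 101 and 111 TPM in PMA libraries, against 152 and 151 TPM in untreated libraries, and its log2 fold change of -0.45 ± 0.09 (adjusted p = 0.0046) was the smallest called fall among the 45 genes. The checkpoint kinases TTK and BUB1 fell by -1.15 ± 0.24 and -0.76 ± 0.14 in log2 fold change.

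The 4 genes that trigger anaphase were the only role in which some members, CDC20 and UBE2C, were not called. CDC20 had 142 and 150.4 TPM in PMA libraries, against 165 and 136 TPM in untreated libraries, and these ranges overlapped. From scaled counts its log2 fold change was 0.21 ± 0.10 with a 95% interval of -0.01 to 0.43 (adjusted p = 0.096), while on log2(TPM + 1) it was -0.04, so no direction can be given. The interval leaves out a fall of the size seen in the other genes. ESPL1, the separase that cleaves cohesin, had 4.71 and 5.77 TPM with PMA, against 15.1 and 13.5 TPM without (-1.03 ± 0.14, adjusted p = 0.00053). Its inhibitor PTTG1 had 126 and 153 TPM in PMA libraries, against 223 and 243 TPM in untreated libraries, and so was among the highest of the 45 genes in both. PTTG1 fell by a log2 fold change of -0.48 ± 0.15 (adjusted p = 0.029), a call lost without PMA replicate 1 (adjusted p = 0.18) or without untreated replicate 2 (adjusted p = 0.16). Reads of PTTG1 can be shared with its near-identical copies, so its level is uncertain. UBE2C had 12 and 19 expected counts in PMA libraries, against 6 and 12 in untreated libraries, too few to give a direction (0.88, 95% interval -0.41 to 2.18, adjusted p = 0.22).

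The chromosomal passenger complex, which corrects faulty attachments and later guides the cleavage furrow, fell in all 4 subunits. Summed over the complex, the level was 90.9 and 125 TPM in PMA libraries, against 287 and 282 TPM in untreated libraries. Its kinase AURKB had 15.1 and 26.7 TPM with PMA, against 68.1 and 69.2 TPM without. That is a log2 fold change of -1.46 ± 0.26 (adjusted p = 0.002), with the PMA replicates themselves well apart. BIRC5 (survivin) fell by -1.19 ± 0.19, CDCA8 (borealin) by -0.96 ± 0.18 and the scaffold INCENP by -0.92 ± 0.11 in log2 fold change.

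All 5 cytokinesis genes fell. ECT2, the exchange factor that activates RHOA at the division plane, had 5.26 and 6.90 TPM in PMA libraries, against 15.75 and 16.9 TPM in untreated libraries. Its log2 fold change was -1.20 ± 0.16 (adjusted p = 0.00045), the largest among these 5. PRC1, which bundles the microtubules of the central spindle, had 42.9 and 53.8 TPM with PMA, against 135 and 123 TPM without (-1.11 ± 0.15, adjusted p = 0.00048). RACGAP1, the centralspindlin subunit that recruits ECT2, fell less, with 20.5 and 24.3 TPM in PMA libraries, against 42.7 and 44.05 TPM in untreated libraries (-0.66 ± 0.13, adjusted p = 0.0034). ANLN (anillin), which links the contractile ring to the membrane, and CIT, which acts at the midbody, fell by -0.80 ± 0.14 and -1.07 ± 0.14. The median log2 fold change of the 5 cytokinesis genes was -1.07, close to the -1.03 over all 45 genes; no test of a difference between roles was made.

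Promoters are shown for 6 genes, those with the 3 lowest and the 3 highest log2 fold changes among the genes with a promoter entry, because G2 and M phase genes are known to be repressed and activated together through a CHR element (TTTGAA or TTCGAA) and CCAAT boxes bound by NF-Y. The RefSeq table (GRCh38.p14) holds promoters for 35 of the 45 genes, each 300 bases long, from 250 bases before the start site to 50 after. Stretches outside annotated UTRs of PLK1, AURKB, PTTG1 and CDC20, and 30 bases around the TTTGAA of MAD2L1, PLK1 and SMC4, read as follows, with CHR and CCAAT matches on either strand in capitals.
PLK1, chr16:23678639-23678821, plus strand: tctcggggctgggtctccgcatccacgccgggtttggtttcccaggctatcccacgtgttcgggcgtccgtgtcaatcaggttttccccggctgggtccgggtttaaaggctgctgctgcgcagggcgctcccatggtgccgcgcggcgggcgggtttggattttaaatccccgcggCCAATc
AURKB, chr17:8210255-8210499, minus strand: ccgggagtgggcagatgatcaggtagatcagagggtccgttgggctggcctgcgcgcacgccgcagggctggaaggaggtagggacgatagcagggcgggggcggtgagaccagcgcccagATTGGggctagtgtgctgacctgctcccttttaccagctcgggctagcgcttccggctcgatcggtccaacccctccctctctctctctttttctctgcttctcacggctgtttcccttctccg
PTTG1, chr5:160421712-160421821, plus strand: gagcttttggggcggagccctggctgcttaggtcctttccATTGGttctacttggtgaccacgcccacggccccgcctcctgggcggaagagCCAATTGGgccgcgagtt
CDC20, chr1:43358731-43358954, plus strand: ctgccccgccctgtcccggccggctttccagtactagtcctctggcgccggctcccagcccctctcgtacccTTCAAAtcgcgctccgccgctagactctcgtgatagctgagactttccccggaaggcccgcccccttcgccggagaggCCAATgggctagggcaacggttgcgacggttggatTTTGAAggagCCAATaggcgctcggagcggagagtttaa
MAD2L1, chr4:120066807-120066836, minus strand: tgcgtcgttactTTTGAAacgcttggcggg
PLK1, chr16:23678848-23678877, plus strand: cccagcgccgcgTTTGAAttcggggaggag
SMC4, chr3:160399563-160399592, plus strand: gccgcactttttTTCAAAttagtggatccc
TTTGAA was found, on either strand, in 25 of the 35 promoters (71.4%), against 15.5% of 27305 promoters, 1 per gene. For each gene the entry with the most upstream start site was used, so other start sites were not searched. TTCGAA was found in 2 of 35 (5.71%), against 1.46%, and CCAAT in 25 of 35 (71.4%), against 35.7%. In the stretches shown, the matches that share bases are a CCAAT and its reverse ATTGG in PTTG1. The median log2 fold change was -1.04 in the 25 genes with TTTGAA and -1.14 in the 10 without. CDC20, which was not called after PMA, holds 2 TTTGAA and 2 CCAAT matches. AURKB, among the 3 lowest log2 fold changes shown, holds 1 CCAAT and no TTTGAA. PTTG1 holds 3 CCAAT matches and no TTTGAA. A match describes letters in this window and is not a shown binding site. The part of these motifs in the falls was not tested.

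The same comparison was made in cells that also received Ceefourin 2, between the 4 libraries that were on neither side of the first, although all 8 shared the filter, scaling and estimate of spread. Of the 45 genes, 43 fell and 0 rose in PMA plus Ceefourin 2 cells against Ceefourin 2 cells, where 25.6% of all tested genes fell and 28% rose. They were the same 43 genes. The median log2 fold change was -1.12, and 29 genes fell by at least 2-fold, against 10.1% of all tested genes. In these 43 and in CDC20, both libraries with PMA lay below both without, 44 of 45 genes where 36.8% of all tested genes did so, and in 1, UBE2C, above both, where 39.4% did so. The summed level of the 45 genes was 1104 and 1290.3 TPM in PMA plus Ceefourin 2 libraries, against 2882 and 2960 TPM in Ceefourin 2 libraries. The count of at least 2-fold falls was 20 without replicate 1 of PMA plus Ceefourin 2, and the median was then -0.97. PLK1 showed the largest fall here, with 36.8 and 46.5 TPM in PMA plus Ceefourin 2 libraries, against 151 and 166 TPM in Ceefourin 2 libraries (-1.65 ± 0.18, adjusted p = 0.00015). CENPM followed, with 10.3 and 9.92 TPM, against 37.7 and 36.1 TPM in Ceefourin 2 libraries (-1.57 ± 0.17, adjusted p = 0.00019). ECT2 had 5.82 and 7.55 TPM in PMA plus Ceefourin 2 libraries, against 18.9 and 19.8 TPM in Ceefourin 2 libraries (-1.16 ± 0.16, adjusted p = 0.00051). NDC80 was called (-1.12, adjusted p = 0.011), but not without replicate 1 of PMA plus Ceefourin 2 (adjusted p = 0.074) or without Ceefourin 2 replicate 2 (adjusted p = 0.058).

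**Figure D2:**
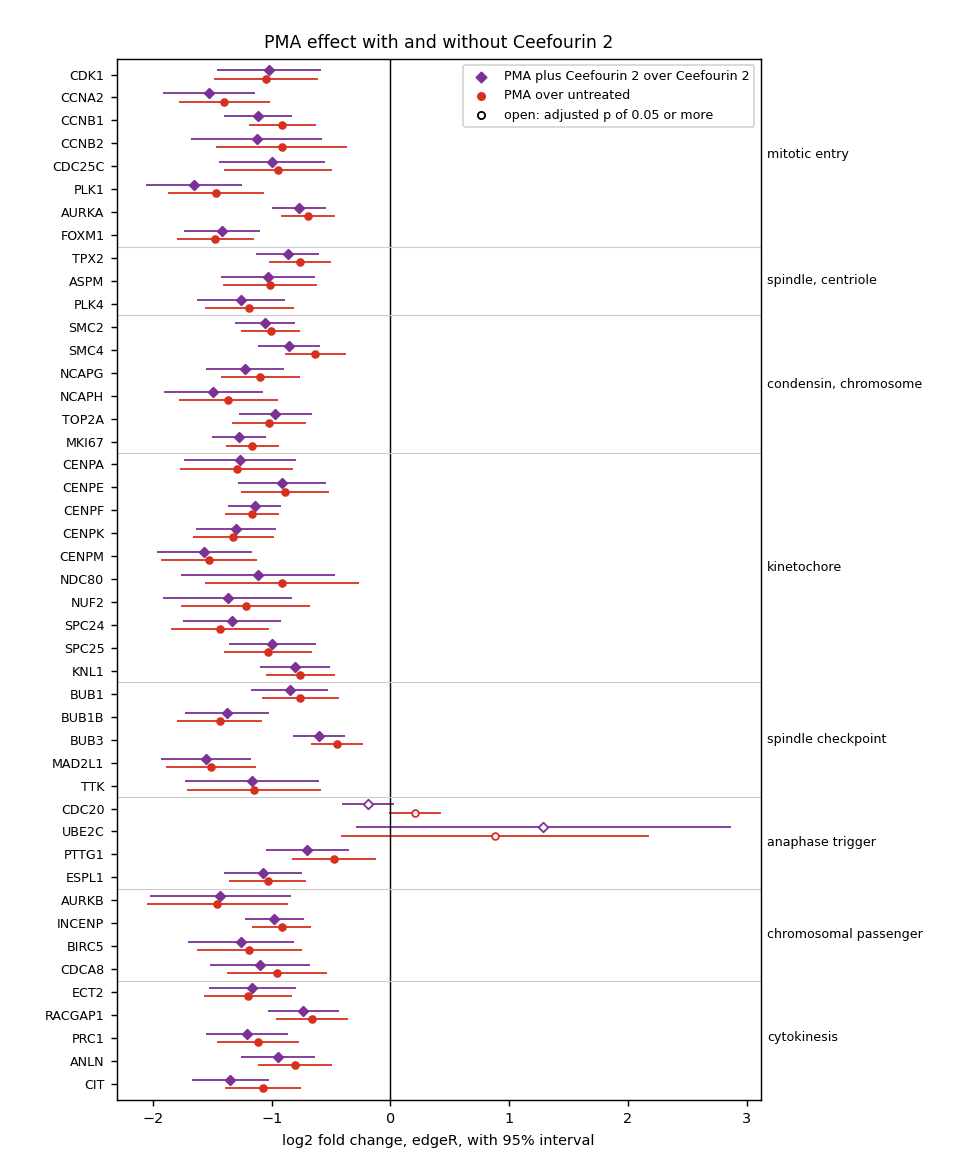
Log2 fold change (edgeR, with 95% interval) of each gene for PMA plus Ceefourin 2 over Ceefourin 2 and for PMA over untreated, with filled symbols called below an adjusted p of 0.05. The pairs lie close together, left of 0 for 43 genes in both comparisons, with medians of -1.12 and -1.03.

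Gene by gene, the effects of PMA with and without the inhibitor were close. Leaving out UBE2C, 42 of 44 genes differed by at most 0.25 on the log2 scale between these comparisons, and the largest difference was 0.40, in CDC20. Across the 44 genes the effects had a Spearman rank correlation of 0.945, given as a description, since genes are not independent replicates and the libraries were fitted together. CDC20 again stood apart, with 115 and 123 TPM in PMA plus Ceefourin 2 libraries, against 175 and 158 TPM in Ceefourin 2 libraries. Its groups did not overlap here, but its log2 fold change of -0.19 ± 0.10 was not called (adjusted p = 0.12). CDC20 was called lower on library totals without TMM scaling (-0.40, adjusted p = 0.01) and on log2(TPM + 1) (-0.48, adjusted p = 0.0076), so the call depends on the scaling.

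Ceefourin 2 itself moved no division gene past the threshold. In PMA plus Ceefourin 2 cells against PMA cells, 0 of 45 genes fell and 0 rose, where 0.913% of all tested genes fell and 0.918% rose. The median log2 fold change was -0.06, and 1 gene had an unadjusted p below 0.05 in edgeR. DESeq2 and limma on TPM also called 0 of 45. Of the 95% intervals, 44 of 45 lay within 1 log2 unit of 0 on both sides and 30 within 0.5, the exception to the wider bound being UBE2C. CDC20 had the smallest p, with 115 and 123 TPM in PMA plus Ceefourin 2 libraries, against 142 and 150.4 TPM in PMA libraries. Both libraries with the inhibitor lay below both without, at a log2 fold change of -0.27 ± 0.10 (adjusted p = 0.25, edgeR). The next smallest p belonged to CIT, with 3.50 and 2.71 TPM, against 4.18 and 3.49 TPM in PMA libraries (-0.30 ± 0.14, adjusted p = 0.41). In the other roles the smallest adjusted p were 0.49 for AURKA (-0.18), 0.52 for SPC25 (0.28), 0.66 for TOP2A (0.17), 0.68 for BUB3 (-0.12), 0.91 for AURKB (0.13) and 0.93 for TPX2 (-0.05). Both libraries of PMA plus Ceefourin 2 lay below both PMA libraries in 6 of 45 genes and above both in 0, arrangements seen in 21.9% and 23.5% of all tested genes.

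Given alone, the inhibitor gave a like result. In Ceefourin 2 cells against untreated cells, 0 of 45 genes fell and 0 rose, where 0.722% of all tested genes fell and 0.959% rose. The median was 0.03, 0 genes had an unadjusted p below 0.05, and 44 of 45 intervals lay within 1 log2 unit and 30 within 0.5. UBE2C had the smallest p, from 4 and 3 expected counts in Ceefourin 2 libraries, against 6 and 12 in untreated libraries (-1.52, 95% interval -3.11 to 0.07, adjusted p = 0.39). Among better measured genes, SMC4 had 81.5 and 72.3 TPM in Ceefourin 2 libraries, against 74.6 and 55.1 TPM in untreated libraries (0.21 ± 0.11, adjusted p = 0.48). CENPF had 22.6 and 23.2 TPM with the inhibitor, against 28.2 and 22.65 TPM without (-0.16 ± 0.10, adjusted p = 0.53). Both Ceefourin 2 libraries lay below both untreated libraries in 5 genes and above both in 6, arrangements seen in 20.9% and 19.8% of all tested genes. Elsewhere the smallest adjusted p were 0.62 for CDC25C (0.27), 0.77 for INCENP (0.10), 0.79 for ECT2 (0.15), 0.8 for BUB1B (-0.13) and 0.9 for TPX2 (0.06).

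**Figure D3:**
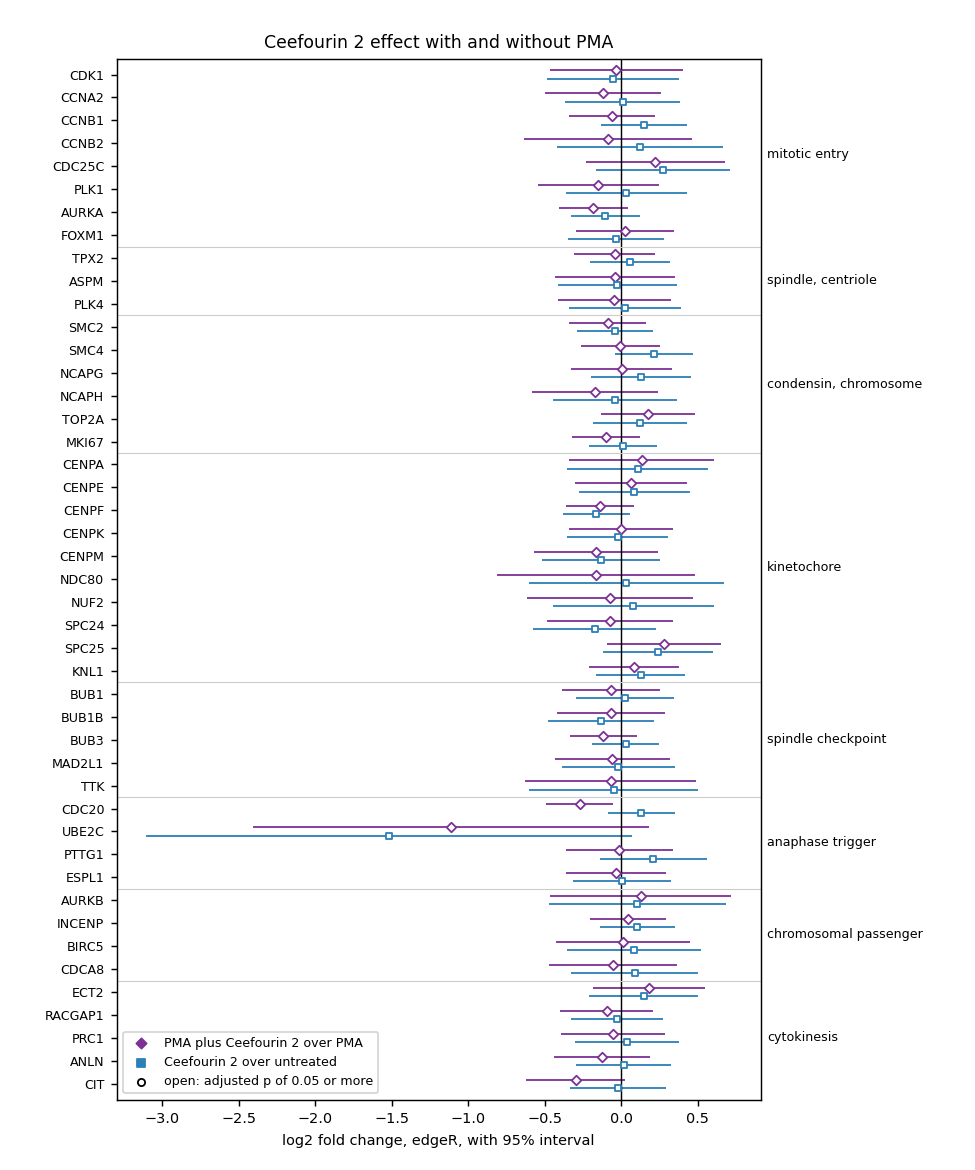
Log2 fold change (edgeR, with 95% interval) of each gene for PMA plus Ceefourin 2 over PMA and for Ceefourin 2 over untreated. All symbols are open, since 0 of 45 genes were called in either comparison, and apart from UBE2C the intervals stay within 1 log2 unit of 0.

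Whether Ceefourin 2 changed the PMA effect was tested as an interaction. It was called in 0 of 45 genes, with 0% of all tested genes called lower and 0.0116% higher, and 1 of the 45 had an unadjusted p below 0.05. That gene was CDC20, with an interaction of -0.40 ± 0.13 on the log2 scale (95% interval -0.71 to -0.09, adjusted p = 0.54, edgeR). The interaction had its smallest p at CIT among cytokinesis genes (-0.28, adjusted p = 0.95), at SMC4 among chromosome genes (-0.22, adjusted p = 0.95) and at CCNB1 among entry genes (-0.21, adjusted p = 0.97).

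Replicates of the PMA-treated groups differed in a common direction. Scaled levels were lower in replicate 1 than in replicate 2 for nearly all of the 45 genes: replicate 1 was the higher in 3 genes in PMA plus Ceefourin 2, 1 in PMA, 10 in Ceefourin 2 and 18 in untreated cells. The median log2 ratio of replicate 1 to replicate 2 was -0.29 in PMA plus Ceefourin 2, -0.35 in PMA, -0.10 in Ceefourin 2 and -0.06 in untreated cells, whereas over all tested genes it lay between -0.03 and -0.00. Replicate 1 of both PMA-treated groups also had the higher mitochondrial share, and its part in this difference was not tested. The falls were seen within each replicate number. Between libraries numbered 1 the median log2 ratio of PMA to untreated was -1.22, and between those numbered 2 it was -0.93, with 43 of 45 genes below 0 in both. With both PMA-treated libraries of high mitochondrial share left out, 40 of the 45 genes were called lower in PMA cells against untreated cells and 42 in PMA plus Ceefourin 2 cells against Ceefourin 2 cells, where 16.2% and 16.5% of all tested genes were called lower.

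**Figure D4:**
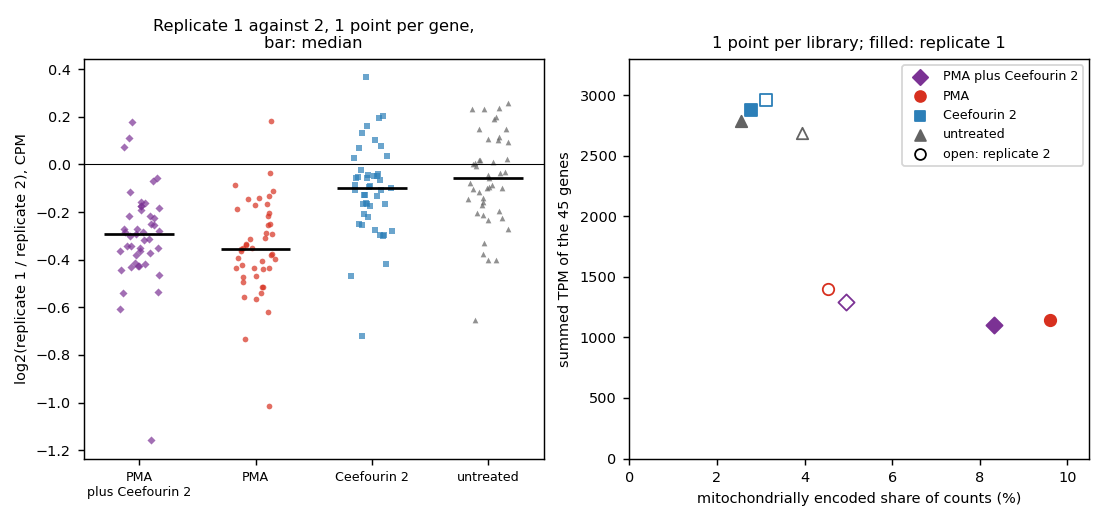
Left, log2 ratio of replicate 1 to replicate 2 (scaled CPM) for each of the 45 genes in the 4 groups, with the median as a bar at -0.29, -0.35, -0.10 and -0.06. Right, summed TPM of the 45 genes against the mitochondrially encoded share of counts, 1 point per library, in which the 4 PMA-treated libraries lie at 1104 to 1396 TPM and the other 4 at 2685 to 2960 TPM.

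Other genes of the same pathways were followed to describe how far the fall extended. These lists were chosen with earlier results of these data known, so they are not an independent check. Over all tested genes, 25.7% fell and 27.9% rose after PMA, against which these counts are to be read. After PMA, 17 of 19 other spindle genes fell and 0 rose, 13 of 15 other condensin and cohesin genes fell and 0 rose, and 19 of 23 other kinetochore genes fell and 1 rose. The counts were 9 lower and 2 higher among 14 other entry genes, and 10 lower and 4 higher among 19 other checkpoint and anaphase-promoting complex genes. Of 21 tested among the 22 other cytokinesis genes, 10 fell and 5 rose, and their median log2 fold change was -0.13, against -0.89 for the spindle list and -0.94 for the kinetochore list. The rises were thus no larger a share than over all tested genes in any of these lists. Outside the cytokinesis list, the falls with the smallest p in each list were in the spindle motors KIF15 (-1.93) and KIF11 (-1.52), the condensin subunit NCAPD2 (-1.39), the cohesin ATPase SMC3 (-0.91), FBXO5 (-1.45), an inhibitor of the anaphase-promoting complex, and KNTC1 (-1.34), a checkpoint protein of the kinetochore. They also included MIS18A (-1.15), which helps load CENPA, SPDL1 (-0.94), which recruits dynein to kinetochores, PPP1CC (-0.96), a phosphatase catalytic subunit, and CCNF (-0.90), the cyclin of a ubiquitin ligase. All 10 had adjusted p of 0.00012 or below in edgeR. The rises with the smallest p outside the cytokinesis list were at 0.52 for FZR1 and 0.33 for CDC16, both of the anaphase-promoting complex, 0.38 for the kinetochore gene CENPT, 0.61 for WEE1, the kinase that holds CDK1 inactive, and 0.35 for ENSA, an inhibitor of a phosphatase that opposes CDK1. None of these 5 was called on log2(TPM + 1). CDC16 and CENPT were not called without PMA replicate 1 (adjusted p = 0.1 and 0.26) or untreated replicate 2 (0.096 and 0.19). FZR1 and ENSA were not called without PMA replicate 2 (adjusted p = 0.054 and 0.1) or untreated replicate 1 (0.051 and 0.08). WEE1 was not called without PMA replicate 2 (adjusted p = 0.061) or untreated replicate 2 (adjusted p = 0.052).

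Of the other cytokinesis genes, 2 myosin heavy chains had the smallest p in each direction. MYH10, the non-muscle myosin that builds the contractile ring, had 10.1 and 8.74 TPM in PMA libraries, against 58.7 and 44.0 TPM in untreated libraries, a log2 fold change of -2.44 ± 0.15 (adjusted p = 1.2e-05). Its relative MYH9 moved the other way, with 311 and 282 TPM in PMA libraries, against 91.8 and 64.8 TPM in untreated libraries (2.16 ± 0.13, adjusted p = 9.1e-06). Both groups were far apart in both genes. ARHGEF2, the second RHOA activator named above, did not follow ECT2: it rose, with 138 and 135 TPM in PMA libraries, against 98.8 and 88.4 TPM in untreated libraries (0.79 ± 0.09, adjusted p = 0.00019). RHOA had 334 and 347 TPM with PMA, against 419 and 406 TPM without. Its log2 fold change from scaled counts was -0.06 ± 0.08 (adjusted p = 0.56), but on log2(TPM + 1) it was -0.28 (adjusted p = 0.012). KIF23, the motor of centralspindlin, had 15.3 and 17.6 TPM in PMA libraries, against 41.6 and 32.6 TPM in untreated libraries (-0.88 ± 0.16, adjusted p = 0.0019). CEP55, which starts abscission at the midbody, fell by -1.55 ± 0.13 and ARHGAP11A, a RHOA-directed GTPase activator, by -1.72 ± 0.12 (adjusted p = 4.2e-05 and 1.7e-05). None of the 21 was called in PMA plus Ceefourin 2 cells against PMA cells. There MYH10 had 4.59 and 5.62 TPM, against 10.1 and 8.74 TPM in PMA libraries, lower in both libraries, with a log2 fold change of -0.53 ± 0.15 (adjusted p = 0.15 in edgeR, 0.032 in DESeq2 and 0.001 in edgeR with no filter on low counts). MYH9 was at -0.32 ± 0.12 there (adjusted p = 0.3), and was called lower only with no filter on low counts (-0.33, adjusted p = 0.038).

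Of 18 regulators of G2 and M phase transcription, 9 fell and 3 rose after PMA, where 25.7% of all tested genes fell and 27.9% rose. TFDP1, the dimerisation partner of E2F factors, had 49.0 and 52.4 TPM in PMA libraries, against 186 and 158 TPM in untreated libraries (-1.54 ± 0.11, adjusted p = 2.2e-05), and NFYB, a subunit of the CCAAT-binding factor, fell by -1.15 ± 0.12 (adjusted p = 0.00015). MYBL2, the activator that joins the MuvB core at CHR elements, had 25.65 and 40.2 TPM with PMA, against 58.4 and 57.1 TPM without. It missed the threshold in edgeR (-0.56 ± 0.23, adjusted p = 0.067), was called lower on log2(TPM + 1) (-0.83, adjusted p = 0.014) and was -0.92 without PMA replicate 2 (adjusted p = 0.015). E2F4, part of the repressive DREAM complex, was at -0.17 ± 0.09 (adjusted p = 0.14). On library totals without TMM it was called lower in edgeR (-0.35, adjusted p = 0.014), so the call depends on the scaling. LIN37, a MuvB subunit needed for repression, rose by 0.73 ± 0.15 (adjusted p = 0.0039), and by 0.38 on log2(TPM + 1). The count of 3 rises was 1 on log2(TPM + 1) and 0 on that scale with no filter on low counts, where LIN37 was thus not called. The count was 2 with DESeq2, on library totals, with no filter in edgeR, and in the fit of only the compared groups. With replicate number as a block it was 4. The count also became smaller when any library except Ceefourin 2 replicate 1 was left out, or both PMA-treated libraries of high mitochondrial share. E2F7, a repressor of E2F targets, had 6.00 and 5.95 TPM in PMA plus Ceefourin 2 libraries, 2.7 and 2.37 TPM in PMA, 2.81 and 2.29 TPM in Ceefourin 2 and 2.18 and 1.41 TPM in untreated libraries, so it stood highest where both agents were given. It rose in PMA plus Ceefourin 2 cells against PMA cells (1.23 ± 0.22, adjusted p = 0.036), and the call was lost with any of these 4 libraries left out, at log2 fold changes of 1.16 to 1.3 and adjusted p of 0.14 to 0.25. After PMA alone it rose by 0.86 ± 0.22 (adjusted p = 0.012), a call lost without PMA replicate 1 (adjusted p = 0.059) or without untreated replicate 2 (adjusted p = 0.066). On log2(TPM + 1) the change after PMA alone was 0.35 (adjusted p = 0.13) and on log2(TPM + 0.1) it was 0.50 (adjusted p = 0.12), neither of them called. On these scales the value for PMA plus Ceefourin 2 against PMA was 0.98 (adjusted p = 0.039) and 1.21 (adjusted p = 0.07). In edgeR the interaction of PMA and Ceefourin 2 was called in 0 of the 18 regulators, E2F7 included. Ceefourin 2 against untreated likewise called 0 of 18.

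**Figure D5:**
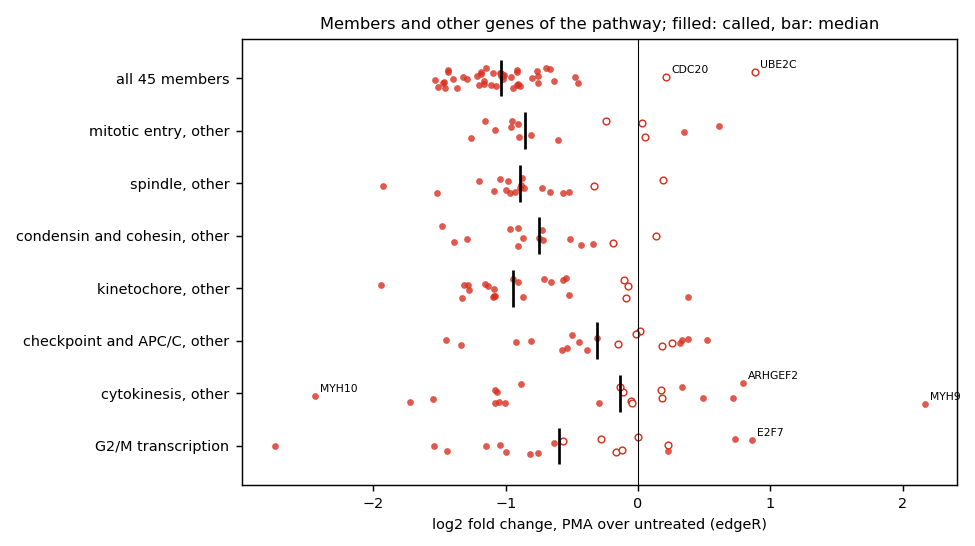
Log2 fold change (edgeR) after PMA over untreated of the 45 genes and of 7 lists of other genes from the same pathways, 1 point per gene, filled where called, with the median as a bar. The 45 genes centre on -1.03, while other cytokinesis genes spread from -2.44 (MYH10) to 2.16 (MYH9).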

How the data were processed

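RNA was sequenced by the authors from both ends of stranded mRNA libraries, 2 per group. The deposited expected counts and the deposited TPM values were made by the authors, who used STAR 2.7, RSEM 1.3.1 and hg38, per the submitters' processing notes. Which annotation release was used is not stated in the labels or files. TPM is scaled by the authors to the same total per library, and expected counts are not normalized. The counts were rounded, filtered with filterByExpr and scaled by TMM in edgeR 4.0.16 under R 4.3.3. All 8 libraries entered a single quasi-likelihood fit with a mean per group, leaving 4 residual degrees of freedom plus 3.95 shared across genes (common biological coefficient of variation 13.6%). P-values were adjusted by Benjamini-Hochberg over 17314 genes per comparison, and "rose" and "fell" mean an adjusted p below 0.05. SE is the absolute log2 fold change over the square root of F, and intervals are 95%. Largest and smallest changes are ranked by estimate, and differences between ranked genes were not tested. DESeq2 1.42.0 and limma 3.58.1 on log2(TPM + 1) and log2(TPM + 0.1) served as alternatives. The script was tested on simulated counts. The 45 genes and all lists were chosen with earlier results of these data known. Of 194 listed symbols, all 194 were matched, 4 by Ensembl identifier. Every one of the 45 could be named. In the Ceefourin 2 comparisons the smallest-p gene of each role was named, and from each other list up to 2 called genes per direction by p, plus RHOA, ARHGEF2, MYH10, MYH9, KIF23, CEP55, MYBL2 and E2F4. Exons of 15 of the 45 genes overlap those of another gene in GENCODE annotation. The overlap is on the same strand for CENPA, BUB1B, PRC1 and CIT, so some of their reads may be shared. For the rest it is only on the opposite strand, which stranded libraries tell apart.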

Additional observations from a re-analysis of the deposited data

How the results depend on the processing

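The count of the 45 genes called lower stayed within 40 to 43 for PMA against untreated and 42 to 44 for PMA plus Ceefourin 2 against Ceefourin 2 under every alternative run, and 0 were called in the Ceefourin 2 comparisons and the interaction under any of them. The alternatives were other size factors, library totals without TMM, mitochondrial genes left out, other filters, DESeq2, limma on TPM, fits of only the groups compared, each library left out, and both libraries of high mitochondrial share left out. With replicate number as a block, 43 were called lower for PMA against untreated and 43 for PMA plus Ceefourin 2 against Ceefourin 2. Elsewhere 0 were called. The block raised the shares of all tested genes called, to 31.7% and 30.9% lower in these PMA comparisons. In PMA plus Ceefourin 2 against PMA, 3.82% were called lower and 4.74% higher. In Ceefourin 2 against untreated the shares were 3.6% and 4.66%, and in the interaction 0.768% and 0.658%. For PMA against untreated, the share of all tested genes called lower was 13.8% with DESeq2 and 34.3% on library totals without TMM. Same-numbered libraries deviated together (correlations of 0.25 to 0.65 between groups), but with 2 numbers and no label that ties them the pairing is only a hint. CDC20 after PMA was -0.040 on all 3 TPM settings, opposite in sign to the count fit, and the cause was not tested. Uncalled values changed sign when single libraries were left out: AURKB spanned -0.21 to 0.54 and TPX2 -0.17 to 0.088 for PMA plus Ceefourin 2 against PMA, TPX2 -0.026 to 0.15 for Ceefourin 2 against untreated, and TPX2 -0.23 to 0.030, NDC80 -0.54 to 0.20 and CDCA8 -0.38 to 0.091 in the interaction. With library totals in place of TMM, the median of all genes after PMA was -0.19 and calls split into 5933 lower and 3832 higher, against 4443 and 4838 with TMM. On log2(TPM + 1) they were -0.14, 5831 and 3197. The medians of the 45 genes were -1.22 and -1.21 on those scales, which is about as far below all genes as with TMM. The interaction needs all groups and was not estimated in the fits of only the compared groups, so its counts above leave out that alternative. UBE2C was dropped by a filter of 1 CPM in 2 libraries. With 2 libraries per group, changes much smaller than the intervals shown were not detectable.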
